A study of Homo sapiens with 8 samples.

Results

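Replication origins that were listed in wild-type cells and in none of 3 *ORC*-knockout lines numbered 2466, out of 30195 origins listed in the wild-type cells on chromosomes 1 to 22 and X (8.17%, 95% Wilson interval 7.86 to 8.48). They are called WT-only origins here. An origin was WT-only when it shared no base with any origin of the *ORC1Δ*, *ORC2Δ*, or *ORC5Δ* list. Of the other wild-type origins, 3548 (11.8%) overlapped an origin of 1 knockout list, 5931 (19.6%) origins of 2 lists, and 18250 (60.4%) origins of all 3. The 4 lists merge into 56855 origins. The name states the call and no more, since every WT-only origin still held reads in every knockout line, between 21 and 1150 per origin.

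The cells are HCT116, an established human colon cancer line of epithelial type, and all 4 groups lack p53 (p53−/−). The group labelled WT has its ORC genes intact. In the groups labelled ORC1KO, ORC2KO, and ORC5KO, the gene of the named subunit was inactivated with CRISPR–Cas9, and these lines are called *ORC1Δ*, *ORC2Δ*, and *ORC5Δ* here. Each group is a single cell line with 2 replicates, so the loss of a subunit and other differences between the lines cannot be told apart. SNS-seq sequences short nascent strands, the first stretches of new DNA at an origin, and a peak of reads marks a place where replication began. The deposited lists hold the peaks found in both replicates of a line, with positions on hg38 and no height. In 3 tables, each setting WT beside 1 knockout line, the reads in the joined origins of the pair were counted with the replicates merged. No spread between replicates can therefore be given, the intervals of read ratios cover counting error only, and reads are not independent molecules where PCR copies remain.

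The origin recognition complex, ORC, binds DNA in G1 phase and, with CDC6 and CDT1, loads the MCM helicase, a step called licensing. Only some of the loaded helicases are fired in S phase, and human origins have no strict consensus sequence. They are known to lie often in GC-rich stretches, CpG islands, and runs of guanines that can fold into G-quadruplexes. A list of origins from a cell population holds the places used often enough to rise above a caller's threshold.

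The sequences below come from the hg38 reference and show the range of WT-only origins. Each is 65 bases of the plus strand, with capitals on the 25-base window that had the highest absolute G4Hunter score in the origin. G4Hunter adds up runs of G as positive and runs of C as negative values, so a negative score marks G runs on the minus strand. The first set comes from 3 of the 6 WT-only origins with the most WT reads, at *TMEM87B* (chr2:112055130-112055194, score −2.4), *USP49* (chr6:41895214-41895278, −2.68), and *PRDM16* (chr1:3264315-3264379, 2.36).
TMEM87B: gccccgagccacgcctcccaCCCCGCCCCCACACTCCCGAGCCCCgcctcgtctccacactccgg
USP49: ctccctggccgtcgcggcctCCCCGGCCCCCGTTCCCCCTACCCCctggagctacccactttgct
PRDM16: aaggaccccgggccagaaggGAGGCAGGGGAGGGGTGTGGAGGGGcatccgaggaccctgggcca

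The next set comes from WT-only origins whose reads were lowest in all 3 knockout lines beside WT, at *ENSG00000286001* (chr5:258739-258803, score −1.44), *PKNOX2* (chr11:125312590-125312654, −1.84), *LIM2* (chr19:51387434-51387498, 2.08), and *CRMP1* (chr4:5888597-5888661, −3.08). They are shown because each was lower by 1.5-fold or more in all 3 lines, which none of the first set was in any line.
ENSG00000286001: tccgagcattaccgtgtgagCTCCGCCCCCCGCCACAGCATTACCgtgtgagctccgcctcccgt
PKNOX2: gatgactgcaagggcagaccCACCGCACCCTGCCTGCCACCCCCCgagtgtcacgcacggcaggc
LIM2: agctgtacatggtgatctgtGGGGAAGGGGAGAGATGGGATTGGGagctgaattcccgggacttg
CRMP1: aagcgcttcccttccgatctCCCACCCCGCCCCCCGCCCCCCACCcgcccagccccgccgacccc

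The highest absolute scores of any WT-only origin were found 122552 bp from *PLPPR1* (chr9:100905676-100905740, 3.6) and in *PRRX2* (chr9:129698233-129698297, 3.6). They mark the G-rich end of the range.
PLPPR1: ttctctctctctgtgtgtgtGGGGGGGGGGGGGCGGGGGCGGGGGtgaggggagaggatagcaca
PRRX2: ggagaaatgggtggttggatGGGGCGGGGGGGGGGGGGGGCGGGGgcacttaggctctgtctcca

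A last set shows 76 bases around a repeat of ATCC, in any rotation and on either strand, in WT-only origins whose reads rose in the knockout lines. They lie in *ZNF423* (chr16:49506807-49506882) and in the lncRNA gene *ENSG00000260517* (chr16:29197779-29197854). Capitals mark the longest unbroken run, 4 copies in each.
ZNF423: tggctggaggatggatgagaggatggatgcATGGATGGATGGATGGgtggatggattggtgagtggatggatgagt
ENSG00000260517: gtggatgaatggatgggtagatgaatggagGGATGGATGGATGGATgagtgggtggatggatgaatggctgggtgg

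A property of the lists bears on what WT-only means. In each list, no origin lay farther than a fixed distance from the nearest origin of the same list. The largest gap was 26017 bp in the WT list. The *ORC1Δ* list stopped at 25683 bp, the *ORC2Δ* list at 21839 bp, and the *ORC5Δ* list at 20458 bp, while the median gaps of the 4 lists were 7904, 7930, 6873, and 6601 bp. The last 1000 bp below these limits still held 436, 474, 685, and 815 origins, and none lay beyond. The study's methods describe peaks grouped into clusters by the distance between them. Whether isolated peaks were dropped at that step is not stated there. A WT origin is called isolated here where the nearest origin of each knockout list lay beyond that list's limit.

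**Figure D1:**
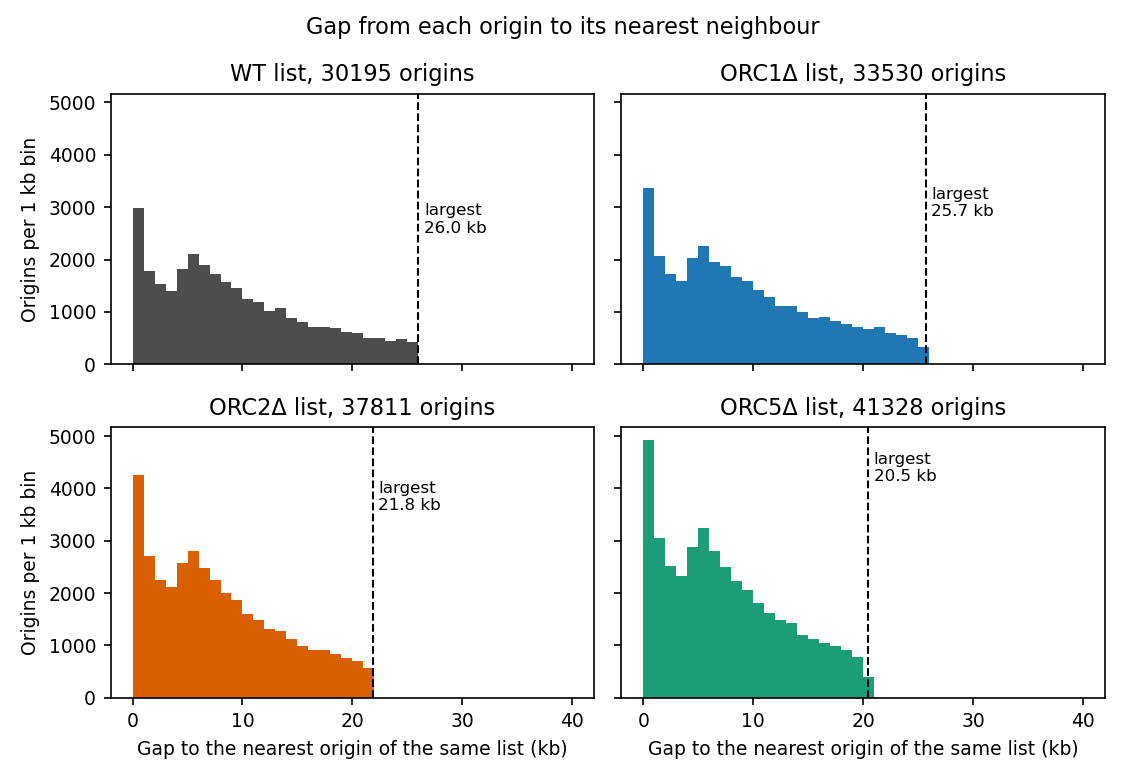
Number of origins (y axis) by the distance to the nearest origin of the same list in kb (x axis), for the 4 lists. The counts run on to the list's limit, 26017 bp in WT and 20458 to 25683 bp in the knockout lines, and stop there.

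By this measure WT-only origins were of different kinds. For 1141 of them (46.3%), the nearest listed origin of each knockout line lay beyond that line's limit, and for 747 (30.3%) it lay within the limit in all 3. The other 234 (9.49%) and 344 (13.9%) were beyond the limits of 1 and 2 lists. The nearest WT origin was itself WT-only for 983 of the 1141 (86.2%) and for 22 of the 747 (2.95%). The definition largely fixes this contrast, since every WT origin has a WT neighbour within 26017 bp and an isolated one has no knockout origin near it. Over all WT-only origins this held for 1084 (44%). The nearest knockout origin was a median of 54710 bp away from the 1141 and 4695 bp away from the 747. The part of the limits in the WT-only call was not tested, and results are given for each kind below.

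The rule is sharp at its edge. The WT-only origins closest to a knockout origin were 8 bp away in the lncRNA gene *ZNF252P-AS1* on chromosome 8, 17 bp away near *NOM1* on chromosome 7, and 26 bp away in *DIP2C* on chromosome 10. Their reads in WT, *ORC1Δ*, *ORC2Δ*, and *ORC5Δ* were 138, 126, 114, and 130 for the first origin. The second had 109, 74, 86, and 127, and the third 119, 86, 91, and 91. Just outside the rule, WT origins near *PRR20A*, in *IGSF9B*, and in *RIBC2* were shared by 1, 2, and 17 bp with an origin of 1 line. Only 11 WT-only origins lay within 100 bp of a knockout origin, 175 within 1000 bp, and 563 (22.8%) within 5000 bp.

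WT-only origins were mostly weak, narrow origins. They held a median of 86 WT reads (quartiles 75 and 106, range 47 to 949) in a median width of 433 bp (range 276 to 1743), beside 161 reads and 571 bp for WT origins found in all 3 knockout lines. The difference of the medians was −75.0 reads (95% interval −76.8 to −73.2) and −138.0 bp (−144.9 to −131.1). Each difference had the same sign on 23 of 23 chromosomes. Both intervals treat origins as independent. A call depends on the reads, so lower values of both can follow in part from the rule, and the values are a description. Reads of a shared origin, here and below, were counted in the joined origin of the pair, which can be wider than the WT origin. Part of the difference in reads can come from this. Reads per kb of the counted stretch differed less, with medians of 200.2 and 266.4. Together the WT-only origins took 247063 WT reads, 3.59% to 3.85% of the WT reads in the 3 tables, and 2.97% to 3.28% of the reads of a knockout line. Table totals ranged from 6416892 to 8523971 reads per line.

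The share of WT origins that was WT-only fell as reads rose, within the limits and beyond them. The sizes of the falls are not comparable, since an origin that overlaps a list is within that list's limit, and all 18250 origins found in 3 lines stand among those within the limits. Among WT origins within all 3 limits, 259 of 1532 with up to 80 WT reads were WT-only (16.9%). The share was 7.99% from there to 100 reads, 3.29% to 130, 0.745% to 200, and 2 of 6381 (0.0313%) above 200 reads. Among WT origins beyond at least 1 limit, the shares in the same bins were 39.9%, 26.8%, 17.9%, 12.9%, and 10.4%. Of the 82 WT-only origins with 200 or more WT reads, 80 were beyond all 3 limits. The other 2, named after their values were seen, lie in *ZCCHC14* on chromosome 16 (225 WT reads, with 172, 194, and 225 in *ORC1Δ*, *ORC2Δ*, and *ORC5Δ*) and near *METRNL* on chromosome 17 (265 WT reads, with 136, 195, and 224).

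**Figure D2:**
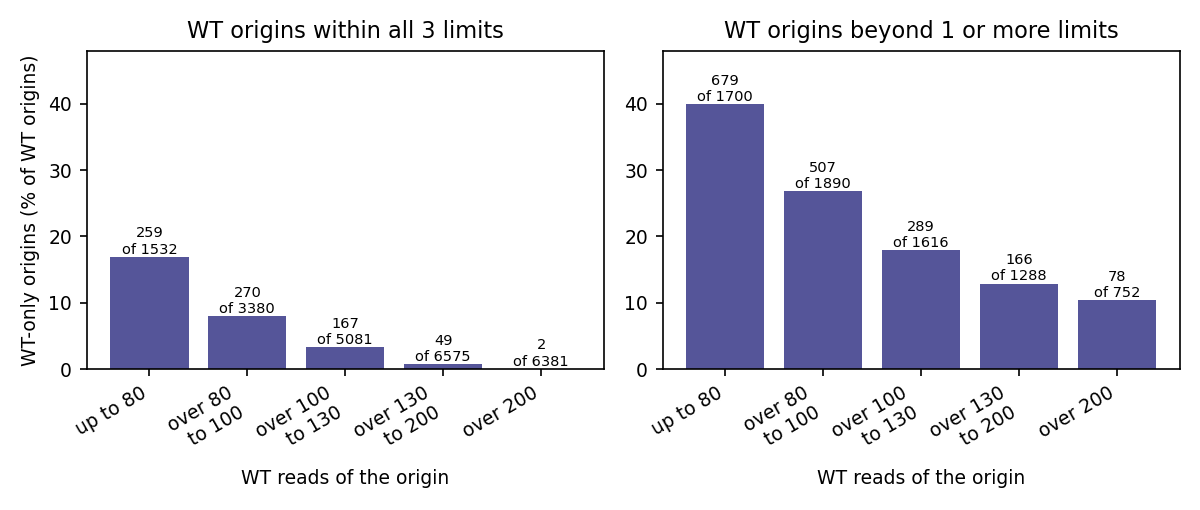
Share of WT origins that were WT-only in percent (y axis), by WT reads in the origin (x axis), for origins within the limits of all 3 knockout lists and beyond at least 1. Within the limits the share runs from 16.9% to 0.0313%, and beyond them from 39.9% to 10.4%.

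Reads were compared as RPM, the reads of an origin scaled to 1000000 reads of the line in the table. Because the rule asks for a call in WT and none in the knockout lines, lower reads in the knockout lines follow in part from the choice, and the values are a description. The median WT-only origin had 13.4 RPM in WT and 11.2 in *ORC1Δ*, 13 and 9.86 in the table of *ORC2Δ*, and 12.5 and 10.4 in the table of *ORC5Δ*. On the log2 scale, the median fold of knockout over WT was −0.27 in *ORC1Δ*, −0.40 in *ORC2Δ*, and −0.27 in *ORC5Δ*. Over all WT origins it was −0.12, −0.10, and −0.06. The drop of the median WT-only origin was thus under the 1.5-fold threshold in each line.

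In *ORC1Δ* cells, 359 WT-only origins (14.6%) were lower by 1.5-fold or more, beside 5.43% of all WT origins and 3.95% of all origins in the table. In *ORC2Δ* cells, 638 (25.9%) were lower, beside 5.18% and 3.58%. In *ORC5Δ* cells, 183 (7.42%) were lower, beside 1.02% and 0.68%. Only 9, 6, and 2 were higher by that fold, beside 1.93%, 1.3%, and 0.553% of all WT origins, and 2 were higher in all 3 lines, beside 0.44%. Most WT-only origins, 1572 (63.7%), passed the fold downward in no line, 646 in 1 line, 210 in 2, and 38 in all 3, beside 0.162% of all WT origins in all 3. The 3 comparisons share the WT reads, and each of these origins has the same WT count in the 3 tables. By a 95% Clopper–Pearson interval of the read ratio, 613, 1057, and 491 WT-only origins lay below WT in *ORC1Δ*, *ORC2Δ*, and *ORC5Δ*, beside 19.5%, 15.7%, and 6.93% of all WT origins.

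The 747 origins within the limits were lower than the isolated ones. Their median log2 folds were −0.38, −0.47, and −0.34 in *ORC1Δ*, *ORC2Δ*, and *ORC5Δ*. Lower by 1.5-fold were 170, 235, and 73 of them (22.8%, 31.5%, and 9.77%), and none were higher. Over all WT origins, the shares lower by the fold were 5.43%, 5.18%, and 1.02%. For the 1141 isolated origins the medians were −0.17, −0.28, and −0.19, with 90, 203, and 59 lower (7.89%, 17.8%, and 5.17%) and 9, 6, and 2 higher. All WT-only origins that were higher by the fold were therefore isolated ones. The 31 WT-only origins with 300 or more WT reads, all isolated, had medians of −0.19, −0.02, and −0.06.

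**Figure D3:**
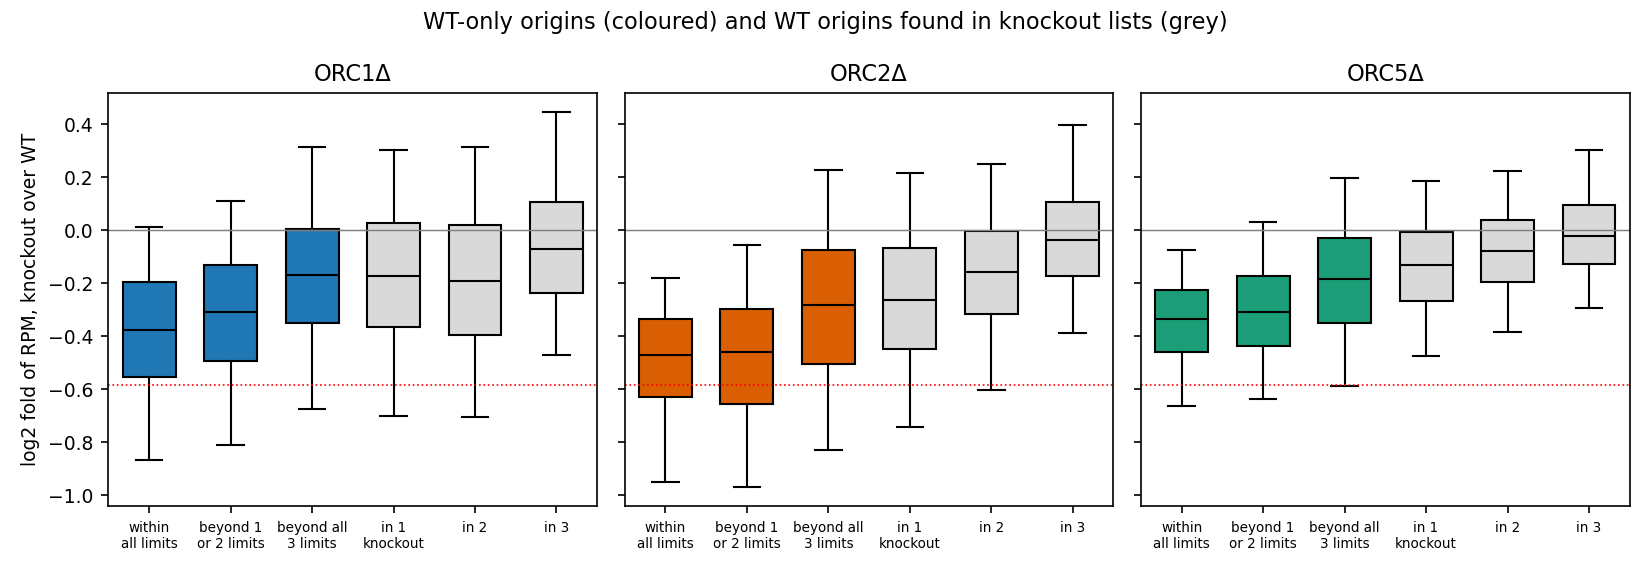
Log2 fold of RPM, knockout over WT (y axis), for WT-only origins by how many limits they exceed (coloured) and for WT origins found in 1, 2, or 3 knockout lists (grey). Boxes span the quartiles with the median as a line, whiskers the 5th and 95th percentiles, and the dotted line marks a 1.5-fold drop, which the medians of the 747 origins within all limits (−0.38, −0.47, and −0.34) do not reach.

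Many WT-only origins held reads at a density that listed origins of the same knockout line also had. In *ORC1Δ* cells, 55.5% of them had more RPM per kb than the lowest 5% of listed *ORC1Δ* origins. In *ORC2Δ* cells the share was 59.2%, and in *ORC5Δ* cells 71.1%. More than the median listed origin was reached by 13.7% in *ORC1Δ*, 16.6% in *ORC2Δ*, and 492 origins in *ORC5Δ*. For the 747 within the limits, 51.9%, 60.8%, and 72.2% were above the lowest 5%. Listed origins were measured over the joined origins of the pair, which can be wider than the called peaks and so less dense. Each WT-only origin was measured over its own width, so the comparison can favour WT-only origins. Reads merged over replicates do not show whether a peak was called in each, so these shares do not say which origins missed a caller's threshold.

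The WT-only origins with the most WT reads were strong in all 4 lines. They were named by rank of WT RPM, and none passed the fold. The origin at the promoter and 5′UTR of *TMEM87B*, which encodes a membrane protein of the Golgi, had 949 WT reads and 886, 1099, and 1150 in *ORC1Δ*, *ORC2Δ*, and *ORC5Δ* (chr2:112054064-112055424). The promoter of *USP49*, a deubiquitinase gene, had 746 WT reads and 891, 1141, and 1047 (chr6:41893883-41895585). An origin 101295 bp from *BCL11B*, a transcription factor gene of T cell development, had 723, 664, 836, and 867 (chr14:99066804-99067991). The knockout counts come from deeper tables, and log2 folds of these 3 origins ran from −0.18 to 0.38.

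The first exon region of *MTCH1*, a gene for a protein of the mitochondrial outer membrane, had 674 WT reads and 839, 1001, and 895 in the knockout lines (chr6:36984640-36985865). An intron of *PRDM16*, which encodes a zinc finger regulator known for brown fat, had 660, 590, 733, and 764 (chr1:3264219-3265585). The lncRNA gene *ITGA9-AS1* had 646, 649, 796, and 780 (chr3:37860848-37861864). All 6 origins lay beyond the limits of all 3 lists, between 25199 and 100843 bp from the nearest knockout origin, and 5 of them had a WT-only origin as their nearest WT neighbour.

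On the chromosome of *USP49*, an origin in an intron of *CCND3*, the gene of cyclin D3, was also WT-only (chr6:41947605-41948111). It had 76 WT reads and 113, 127, and 111 in the knockout lines. Its log2 folds were 0.51 (95% interval of counting error 0.08 to 0.95), 0.51 (0.09 to 0.94), and 0.24 (−0.20 to 0.68). This origin, missing from the 3 lists, thus had more RPM than WT in *ORC1Δ* and *ORC2Δ*. In *ORC5Δ* the interval spans 0.

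The 6 WT-only origins that were lowest in all 3 lines were found by the least negative of their 3 folds, among origins with 100 or more WT reads. The lowest, 83853 bp from *MYOM2* on chromosome 8, a gene for a protein of the sarcomere, had 102 WT reads and 57, 38, and 58 in *ORC1Δ*, *ORC2Δ*, and *ORC5Δ* (log2 folds −0.90, −1.66, and −1.12). An intron of *ENSG00000286001* on chromosome 5 had 135 WT reads and 77, 69, and 91 (−0.87, −1.20, and −0.88). An intron of *PKNOX2*, a homeobox gene, had 114 WT reads and 73, 68, and 78 (−0.70, −0.98, and −0.86). In each of these 3, the lowest knockout value was that of *ORC2Δ*.

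The 5′ exons of *LIM2*, which encodes a membrane protein of lens fibre cells, had 100 WT reads and 65, 57, and 75 in the knockout lines. The promoter and first intron region of *CRMP1*, a gene of axon guidance, had 121 WT reads and 79, 85, and 95. An origin in the lncRNA gene *ENSG00000235198*, 15268 bp from the forebrain homeobox gene *EMX2*, had 136 WT reads and 88, 90, and 108. Of these 6, all except that in *PKNOX2* lay within the limits of all 3 lists, and the *LIM2* and *EMX2* origins were 475 and 660 bp from a knockout origin.

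At the other end, 4 WT-only origins with 100 or more WT reads were highest in all 3 lines. An intron of *ZNF423*, a zinc finger transcription factor gene, had 137 WT reads and 266, 295, and 294 in *ORC1Δ*, *ORC2Δ*, and *ORC5Δ* (log2 folds 0.90, 0.87, and 0.79). In the lncRNA gene *ENSG00000260517* on chromosome 16, neighbouring origins had 166 WT reads and 374, 400, and 316 (1.11, 1.04, and 0.62), and 110 WT reads and 200, 207, and 187 (0.80, 0.68, and 0.46). An intron of *CDH4*, the gene of R-cadherin, had 229 WT reads and 351, 393, and 392 (0.56, 0.55, and 0.47). They lay 23445 to 36118 bp from the nearest knockout origin, beyond the limit of every list, and had a strong GC skew (the excess of G over C on the plus strand, as a share of both), from −0.94 in *CDH4* to 0.92 in *ZNF423*. The next highest absolute skew of a WT-only origin, 0.91, was in an intron of *LAMA5*, a laminin gene, with 117 WT reads and 94, 112, and 109 in the knockout lines.

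**Figure D4:**
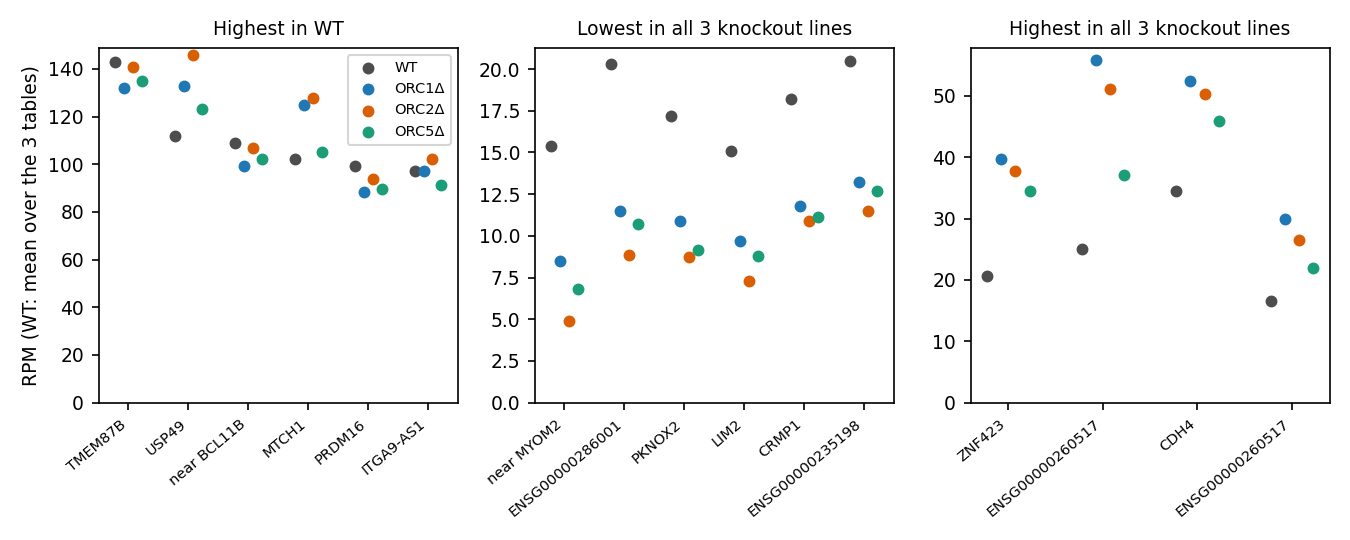
RPM (y axis, from 0) in the 4 lines for named WT-only origins (x axis), in 3 panels with their own scales: most WT reads, lowest in all 3 knockout lines, and highest in all 3. Points are single values per line from merged replicates, and the WT point is the mean over the 3 tables. In the middle panel WT lies above every knockout line (102 to 136 WT reads), and in the panel of the highest ones it lies under all of them (110 to 229 WT reads).

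The promoter origins with the most WT reads did not pass the fold. An origin was put at a promoter when it overlapped the bases from 250 before to 50 after the start of a protein-coding gene in RefSeq, which 108 did (4.38%), beside 5.31% of all WT origins and 5.34% of those found in all 3 lines. At 50 to 150 WT reads the direction turned, with 3.49% of WT-only origins and 2.52% of those in all 3 lines. Beside *TMEM87B* and *USP49*, the promoter origins with the most reads were those of *PIAS3*, *SIRT5*, *CTBP2*, and *NUMB*. *PIAS3*, which encodes a SUMO ligase that inhibits STAT signalling, had 581 WT reads and 577, 709, and 731 in *ORC1Δ*, *ORC2Δ*, and *ORC5Δ*. *CTBP2*, a transcriptional corepressor gene, had 432, 422, 523, and 496. *NUMB*, a gene for an inhibitor of Notch, had 431, 370, 480, and 511.

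The promoter of *SIRT5*, a gene for a mitochondrial deacylase, had 471 WT reads and 462, 391, and 526 in the knockout lines, with a log2 fold of −0.50 in *ORC2Δ*. It lies in the first 25 Mb of chromosome 6, where most origins were low in *ORC2Δ* cells (below). Among the widest WT-only origins were an intron of *UST*, a sulfotransferase gene (1743 bp, 622 WT reads and 818, 899, and 875), and the promoter of *SHOX2*, a homeobox gene (1647 bp, 431 WT reads and 360, 477, and 513).

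Short motifs were searched in promoters, as a description with no test. GGGCGG, on either strand, was found in 77.6% of the 125 RefSeq promoters at WT-only origins, in 78.6% of the 1837 at other WT origins, and in 56.3% of all 22198. CCAAT was found in 38.4% (95% Wilson interval 30.3 to 47.2), 30.8%, and 34.7%.

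Genes of the licensing and firing machinery held WT-only origins at a share near that of all WT origins. The 47 genes of that list held 26 WT origins, of which 2 were WT-only (7.69%, beside 8.17% of all WT origins). *MCM7*, a subunit of the helicase that ORC loads, had an origin at its promoter and first exons (chr7:100100093-100101265) with 331 WT reads and 286, 419, and 442 in *ORC1Δ*, *ORC2Δ*, and *ORC5Δ* (log2 folds −0.27, 0.11, and 0.11). An intron of *ORC1* itself (chr1:52396715-52397132) had 89 WT reads and 81, 70, and 84 (−0.20, −0.58, and −0.39). Both were isolated, and neither passed the fold. The window of the *MCM7* origin with the highest absolute score (chr7:100100991-100101055, −2.44) is shown because the gene is the licensing target.
MCM7: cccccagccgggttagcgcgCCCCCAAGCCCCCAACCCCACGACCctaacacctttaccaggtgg

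Genes of colon cancer biology gave similar counts. WNT and colorectal cancer genes held 48 WT origins with 3 WT-only, in *RSPO2*, *TCF7L2*, and *ZNRF3*. *RSPO2*, which encodes a secreted enhancer of WNT signalling, had 108 WT reads and 77, 59, and 92 in the knockout lines, and passed the fold in *ORC2Δ* (log2 fold −1.11). *ZNRF3*, the gene of a ligase that removes WNT receptors, had 82, 65, 64, and 71 and also passed it there (−0.59), while *TCF7L2*, a WNT transcription factor gene, had 85, 76, 78, and 74. The p53 and cell cycle genes held 32 WT origins with 3 WT-only, in *CCND3*, *CDK6*, and *E2F1*, and epithelial genes held 20 with none. The WT-only shares of 7.69%, 6.25%, and 9.38% of the first 3 lists lie near the 8.17% of all WT origins. With 20 WT origins, the epithelial list is too small to set its share apart from that value.

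WT-only origins were spread over 1509 protein-coding or lncRNA genes, and 9 genes held 5 or more. *PRDM16* held the most, 7 of its 23 WT origins. Beside the strong origin above, the 6 others had 82 to 118 WT reads. Of the 7, 5 were lower by 1.5-fold in *ORC1Δ*, 5 in *ORC2Δ*, and 2 in *ORC5Δ*, with medians of −0.71, −0.73, and −0.50. The 16 other WT origins of the gene had medians of −0.13, −0.002, and 0.03 and ran from −0.73 to 0.86, −0.42 to 0.70, and −0.41 to 0.65. Of these 16, 11, 8, and 6 were lower than WT, and 3, 3, and 1 were higher by the fold, so WT-only origins with low reads and some origins with high reads lay in the same gene. *CDH13*, a cadherin gene, held 6 WT-only origins of 27, and *CACNA1D*, a calcium channel gene, 5 of 7. All 4 WT origins of *LAMA2*, a laminin gene, and of *PKD1L1*, a polycystin family gene, were WT-only and beyond all 3 limits.

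*COL23A1*, a collagen gene on chromosome 5, was low in *ORC5Δ* cells alone among the 3 lines. Its 5 WT-only origins had 84 to 143 WT reads, and 35 to 103 reads in *ORC5Δ* cells (log2 folds −1.57 to −0.78, median −1.24). All 5 passed the fold in *ORC5Δ*, and none in *ORC1Δ* (median −0.25) or *ORC2Δ* (median −0.37). The 6 other WT origins of the gene passed it too (median −0.85). In a stretch of chromosome 5 that includes the gene, 15 of the 23 WT origins that were not WT-only passed it in *ORC5Δ* (median −0.69). None of the 23 passed it in *ORC1Δ* or *ORC2Δ*. The drop thus covered all WT origins of the gene, not its WT-only origins alone, and reached beyond the gene.

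**Figure D5:**
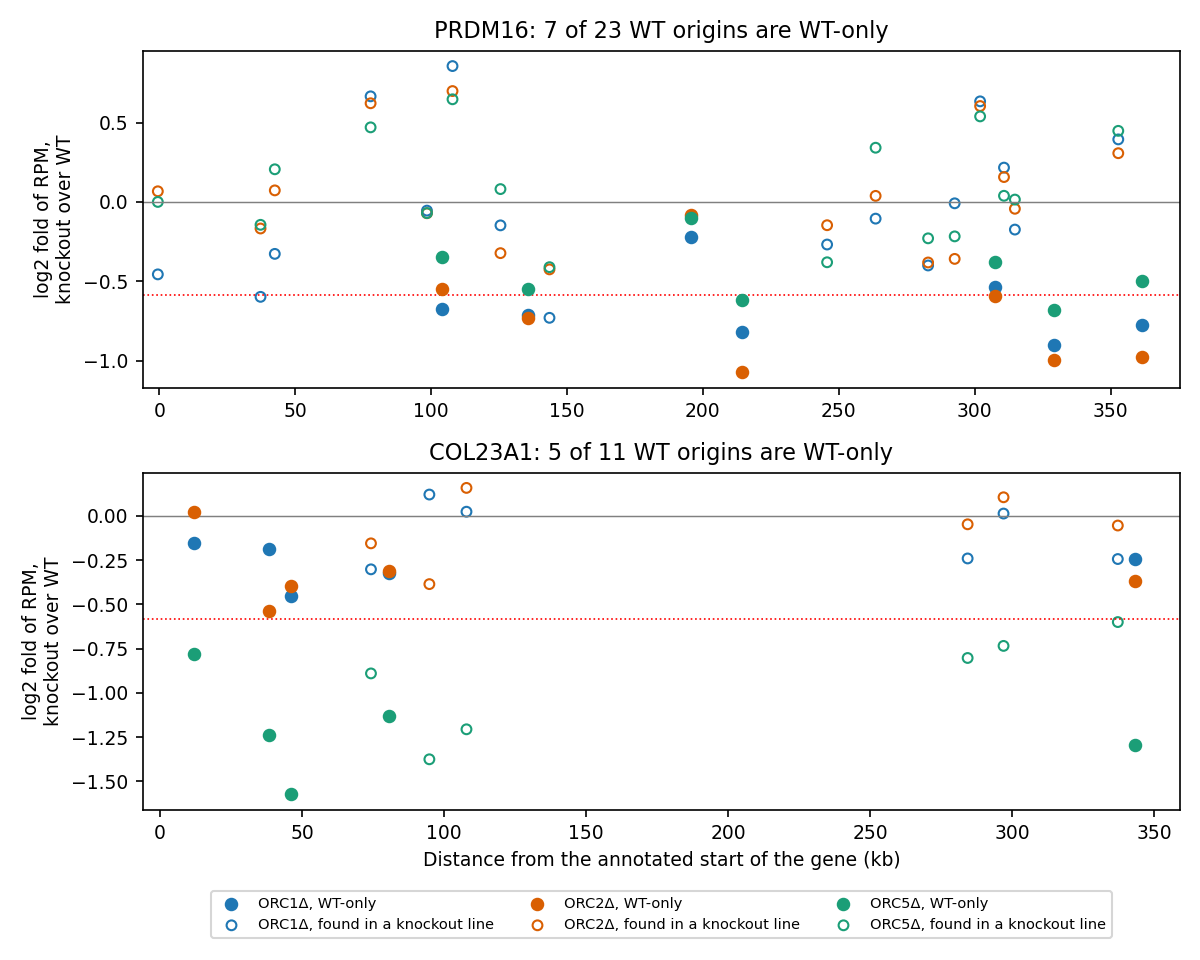
Log2 fold of RPM, knockout over WT (y axis), of each WT origin along *PRDM16* and *COL23A1* by distance from the gene's start in kb (x axis). Filled points are WT-only origins, open points origins found in a knockout line, and the dotted line marks a 1.5-fold drop. In *PRDM16* open points reach 0.86 between filled points as low as −1.07, and in *COL23A1* all *ORC5Δ* points lie at −0.60 or lower.

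In other stretches of the genome, the WT origins found in a knockout list also had a low median log2 fold in 1 line. WT-only origins there were low in that line too. These stretches were chosen after the values were seen. In the first 25 Mb of chromosome 6, 34 of 37 WT-only origins were lower by 1.5-fold in *ORC2Δ* (median log2 fold −1.19), as were 161 of the 193 other WT origins (−0.92). In *ORC1Δ* and *ORC5Δ*, 4 and 2 of the 37 were. On chromosome 13 from 110 Mb, 18 of 19 WT-only origins were lower in *ORC2Δ* (−1.05), as were 80 of 127 others (−0.69), and between 35 and 40 Mb of chromosome 18 all 5 were, with 32 of 37 others. The cause was not tested.

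In *ORC1Δ* cells, 6 of 9 WT-only origins between 55 and 70 Mb of chromosome 5 were lower by the fold, with 35 of 40 others. In the first 5 Mb of chromosome 7, 7 of 11 were, with 101 of 236 others. In *ORC5Δ* cells, 8 of 20 in the first 10 Mb of chromosome 10 were, with only 10 of 138 others, whose median log2 fold was −0.29. Of these 20, 2 were lower by the fold in *ORC1Δ* and 7 in *ORC2Δ*, with 3 and 2 of the 138 others. Blocks of 5 Mb with a low median held 19 of the 359 low WT-only origins in *ORC1Δ* (5.29%), 66 of the 638 in *ORC2Δ* (10.3%), and 8 of the 183 in *ORC5Δ* (4.37%), so most low WT-only origins lay outside such blocks.

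By chromosome, the WT-only share of WT origins ran from 4.25% on chromosome 19 (95% Wilson interval 3.52 to 5.13) to 11.6% on chromosome 3 (10.0 to 13.5). The share of WT-only origins that were isolated ran from 23% on chromosome 22 to 66.7% on chromosomes 3, 18, and X. Of 261 blocks of 10 Mb with 20 or more WT origins, 6 held no WT-only origin. The highest share was 11 of 34 on chromosome 20 between 10 and 20 Mb, 7 of them isolated.

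In sequence, WT-only origins had fewer G-quadruplex motifs than WT origins found in all 3 knockout lines, and origins found in 1 knockout line lay between them. A G-quadruplex motif, an absolute G4Hunter score of about 1.5 or more in a window of 25 bases, was present in 80.7% of WT-only origins and in 93.8% of WT origins found in all 3 knockout lines. The difference was −13 percentage points (95% interval −14.7 to −11.5), with the same sign on 23 of 23 chromosomes. A score of at least 2 was reached by 41.7% and 64.7%. These intervals treat origins as independent. WT origins found in 1 knockout line had a motif in 85.9% (84.7 to 87.0), a median GC content of 52.4%, an ATCC repeat in 0.874%, and a CpG island in 13.6%, closer to the WT-only values given here than those found in all 3 lines were. Width and reads differ between the groups too, and among origins of 50 to 150 WT reads the difference was −10.7 points.

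The median GC content was 51.5% in WT-only origins and 56.0% in those found in all 3 lines, a difference of −4.45 points (95% interval −4.92 to −3.98). It depended on the limits: the 747 origins within them had 55.5% and the isolated ones 49.5%, so the former hardly differed from shared origins in GC (−0.43 points). Absolute GC skew was lower in WT-only origins, with medians of 0.309 and 0.357, and it was also lower within the limits (0.299).

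Repeats of ATCC, at least 4 copies in a row, were rare. They were found in 11 WT-only origins (0.446%, Wilson interval 0.249 to 0.797) and in 2.93% of origins found in all 3 lines, and 10 of the 11 were isolated. These 11 had median log2 folds of 0.44, 0.45, and 0.40 in *ORC1Δ*, *ORC2Δ*, and *ORC5Δ*, beside 0.47, 0.35, and 0.29 for all 625 WT origins with such a repeat. The 37 WT-only origins whose GC skew was 0.6 or more in size had medians of 0.10, 0.06, and −0.06, beside 0.35, 0.28, and 0.17 for all 1701.

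CpG islands overlapped 319 WT-only origins (12.9%) and 18.1% of origins found in all 3 lines, a difference of −5.21 points (95% interval −6.6 to −3.72). Among origins of 50 to 150 WT reads the direction turned, with 11.4% and 8.9%. Exons of protein-coding genes overlapped 12.5% and 19.3% (−6.81 points, −8.19 to −5.33), and with 50 to 150 reads 11.5% and 12%. Origins outside genes made up 30.5% and 28.5% (2.08 points, 0.176 to 4.04), with the direction turned at 50 to 150 reads (30.5% and 31.1%) and within the limits (28.4% and 28.5%).

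GC-rich WT-only origins were low more often in *ORC1Δ* cells. Of the 457 with a GC content of 60% or more, 36.3% were lower by the fold in *ORC1Δ*, 26.0% in *ORC2Δ*, and 5.91% in *ORC5Δ*. Of the 473 below 45%, 7.4% were lower in *ORC1Δ*, 19.9% in *ORC2Δ*, and 8.46% in *ORC5Δ*. Over all WT origins, 12.2% of those with 60% or more and 2.98% of those below 45% were lower in *ORC1Δ*. In *ORC2Δ* the shares over all WT origins were 3.97% and 6.39%, the opposite direction to that of WT-only origins. In *ORC5Δ* they were 0.591% and 2.14%. At CpG islands 33.9% of WT-only origins were lower in *ORC1Δ*, beside 11.7% of those without an island, and at promoters 34.3%. The same contrast stood in all WT origins, with 13.9% at islands, 3.68% without one, and 14.5% at promoters. Library GC bias and the loss of the subunit cannot be told apart here, since each line is a single merged value.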

How the data were processed

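SNS-seq of 4 HCT116 p53−/− lines with 2 replicates each (8 samples) was used. The authors trimmed, aligned to hg38, and called peaks with Trim Galore, Bowtie, and MACS2, kept the peaks found in both replicates, and deposited them as positions only. The deposited tables hold read counts, not normalized, with the replicates merged, so 1 value per line and no test between lines was possible. The tool that counted the reads is not given in the sources used here.

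Origins on chromosomes 1 to 22 and X were compared at an overlap of 1 bp or more. Each WT-only origin was its own entry in all 3 tables. Other WT origins took the reads of the joined entry that contains them, and their WT reads came from the narrowest of the 3 entries. Counts were scaled to all reads of the line in the table (RPM), without a pseudocount or a filter, and a 1.5-fold change was called. Shares have 95% Wilson intervals and single read ratios Clopper–Pearson intervals. Intervals of medians come from order statistics, and those of differences combine the intervals of both groups. Origins were annotated with GENCODE release 44, RefSeq promoters (GRCh38), CpG islands found in the sequence (over 200 bp, at least 50% GC, observed over expected CpG above 0.6), and G4Hunter. Blocks of 5 Mb were called low where the median log2 fold of their other WT origins was below −0.25.

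Named origins were the 6 with the most WT RPM, the 6 lowest and 4 highest in all 3 lines with at least 100 WT reads, the 6 strongest at promoters, the widest 3, the 3 of highest G4Hunter score and of highest GC skew, the 3 closest to a knockout origin, those in the gene lists, and the genes with the most. An origin that this rule chose is not reported here. The members and the lists were chosen with earlier results of these data known. The calls were tested on simulated data. Alternatives covered overlap, scaling (edgeR TMM, median-of-ratios, shared origins), threshold, read filters, GC correction, windows, and the limits. The tools were numpy 2.4.6, numba 0.67.0, pandas 2.3.3, matplotlib 3.10.9, and scipy 1.17.1 under Python 3.11.15, and edgeR 4.0.16 under R 4.3.3.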

Additional observations from a re-analysis of the deposited data

How the results depend on the processing

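No paired analysis was possible because the tables merge the replicates, and for the same reason no replicate was left out in turn. Of 105 alternative values, 47 stayed within the spread set for them, 55 moved, and 3 reversed. The alternatives on the limits of the lists were chosen after seeing the data.

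The number of WT-only origins was 2546 with 50% of the origin covered, 2554 by the midpoint, 2364 within 500 bp, and 2291 within 1000 bp. It was 628 among origins at least as wide as the median, 774 with 100 or more WT reads, 747 within all limits, and 1907 with the 4 lists held to the smallest limit. Low calls in *ORC1Δ*, *ORC2Δ*, and *ORC5Δ* numbered 34, 81, and 8 at 2-fold, and 1038, 1509, and 988 where WT RPM was at least 25% above the knockout line. With 100 or more WT reads they numbered 108, 141, and 37 (14.0%, 18.2%, and 4.78%). Within all limits they numbered 170, 235, and 73 (22.8%, 31.5%, and 9.77%), and beyond all of them 90, 203, and 59 (7.89%, 17.8%, and 5.17%). Over all WT-only origins the shares were 14.6%, 25.9%, and 7.42%. These subsets were judged by their counts, so a smaller subset could count as moved with nearly the same share, as in *ORC1Δ* with 100 or more reads.

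Median log2 folds stayed below 0 throughout. With 100 or more WT reads they were −0.245, −0.315, and −0.2295, within the limits −0.3776, −0.4721, and −0.3367, and beyond them −0.1673, −0.2809, and −0.1853. Scaling by reads in shared origins gave −0.2243 in *ORC1Δ* and −0.2452 in *ORC5Δ*, GC correction −0.3085 in *ORC1Δ*, and TMM and median-of-ratios factors −0.366 and −0.3652 in *ORC2Δ*.

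Beside origins found in all 3 lines, the width difference was −130.5 bp with 50% coverage, −130.0 bp within 1000 bp, −39.0 bp at 50 to 150 WT reads, and −167.0 bp within the limits. The difference in reads was −73.0, −72.0, and −29.0 under the first 3 of these. GC content differed by −1.353 points at 50 to 150 reads and −0.4322 within the limits. Absolute GC skew differed by −0.08137 in 500 bp around the midpoint and −0.05815 within the limits. G-quadruplex motifs differed by −9.95 points in 500 bp windows, −10.7 at 50 to 150 reads, and −23.0 at a score of 2, and ATCC repeats by −2.0 at 50 to 150 reads and −2.93 within the limits.

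CpG islands differed by −3.39 points in 500 bp windows, −1.76 by midpoint, and −3.29 within the limits, and reversed to 2.46 at 50 to 150 reads. Exons differed by −3.13, −0.521, −0.52, and −3.95 points in 500 bp windows, by midpoint, at 50 to 150 reads, and within the limits. The share outside genes reversed to −0.652 at 50 to 150 reads and −0.0746 within the limits. The causes were not tested.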

Other observations

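Each knockout list also held origins listed in no other line. Of the *ORC1Δ* list, 4296 of 33530 origins (12.8%) overlapped no origin of the other 3 lists, beside 4806 of 37811 (12.7%) in *ORC2Δ*, 6449 of 41328 (15.6%) in *ORC5Δ*, and 8.17% in WT. Of these, 54.0%, 44.4%, and 45.7% lay beyond the limits of the other 3 lists, beside 46.3% of the WT-only origins. They were narrower than their lists in every line, with median widths of 441, 414, and 427 bp beside 516, 528, and 524 bp. Their median GC content was 46.7%, 49.1%, and 50.1%, beside 52.25%, 53.33%, and 53.16% for their lists. WT-only origins had 51.5%, beside 54.85% for the WT list. The median absolute GC skew of origins listed in *ORC1Δ* cells alone was 0.395, beside 0.382 for the whole *ORC1Δ* list. It was 0.309 for WT-only origins, beside 0.3415 for the WT list.

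WT-only origins came singly or in short runs along the WT list, where a run ended at a gap above 26017 bp. By this rule 1316 had no WT-only origin directly beside them, 1030 stood in pairs, and 120 in runs of 3 or more, of which the longest held 5.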
